A study of Gallus gallus with 6 samples.

Results

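Glutathione transferases are enzymes that join the tripeptide glutathione to reactive or foreign compounds so that these can be exported from the cell. The cytosolic enzymes fall into classes, among them alpha, mu, omega, theta and zeta, which differ in substrates. The kappa enzyme sits in mitochondria and peroxisomes, and the microsomal enzymes are membrane proteins of another family. Alpha enzymes also reduce lipid hydroperoxides and bind bilirubin and steroids, and are abundant in vertebrate liver.

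The members here were all probe sets of the array whose annotation gave GSTA3, GSTA2, GSTA4, GSTM2, GSTO1, GSTT1, GSTZ1, GSTK1 or MGST1, as current or older symbol, and no other gene. This gave 15 of the 37690 probe sets, for 9 genes. GSTO1 is an older name of the gene listed today as GSTO2, and that name is used below. The set was chosen by the fall of GSTA3 between these same 2 groups of arrays and filled up with its family by name, so the difference between the groups is given for all members as a description, with no p. The probe sets of GSTA3 and GSTA2, and 1 each of GSTO2 and GSTK1, are of a kind that can match related transcripts, and that of GSTZ1 is of a kind that covers several transcripts of a gene.

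The samples were chick epiblast. In the induced group, lateral head mesoderm of HH6 embryos had lain for 12 hours on the extraembryonic area opaca of hosts at stage HH4-, and the epiblast under it was collected after the graft had been taken off. The control group was area opaca of the opposite side of the hosts, with no graft. Each group had 3 samples, numbered as biological repeats, with 1 Affymetrix array each. The labels give neither the strain nor the number of embryos in a sample, so the SDs below measure the spread between these samples. Each SE comes from the limma fit, which draws the variance of a probe set towards that of probe sets of similar level. The study asked which transcripts go up or down while head mesoderm induces progenitors of the sensory placodes.

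Arrays differed in brightness. The median deposited signal was 17.7 units in control sample 1 and 18.35 in induced sample 1, against 7.5 to 9.6 in the other 4. On each array, 46.9% to 63.7% of the values were below 16 units, where folds are compressed. Levels below are log2(signal + 16) after all arrays had been brought to the same distribution, and folds are on that scale. EPCAM and CDH1, adhesion genes of epithelia, were strong in both groups, with mean levels of 11.44 and 10.84 in the controls and 11.50 and 10.85 in the induced samples. Both are in the surface ectoderm list below, other genes of which differed more between the groups, among them GATA3 (higher) and KRT7 (lower).

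GSTA3, an alpha class enzyme that in humans also isomerizes steroid precursors, had the strongest change of the family. Its deposited signal was 286.3, 259.2 and 420.3 units in controls 1, 2 and 3, and 102.7, 24.4 and 30.3 in induced samples 1 to 3. All 3 induced samples lay below all 3 controls, also before the arrays were brought to a common level. The normalized levels were 7.53, 8.54 and 8.98 in the controls and 6.25, 5.53 and 5.996 in the induced samples. The groups came nearest to each other in the 2 brighter arrays, those of control 1 and induced 1. The mean was 8.35 ± 0.75 in the controls and 5.93 ± 0.37 in the induced samples (SD, n = 3 each), and the log2 fold change was -2.43 (SE 0.347), or 5.37-fold lower. Of the 22614 probe sets kept after a filter on low signal, 2 had a more negative value. This rank restates the fall by which GSTA3 was chosen. In bulk tissue, fewer cells of a type and less RNA per cell cannot be told apart.

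The limma fit over all probe sets put 1 of the 14 kept members, GSTA3, under an adjusted p of 0.05. For GSTA3 this repeats the difference by which it was chosen, so it is no test of it and no p is given. Of all probe sets 0.0973% were so called, 15 of them higher and 7 lower in the induced samples (0.031%), and nothing is read from the comparison of these shares. With each array centred on its median the split was 12 and 12, and with no normalization it was 7 and 5. For GSTA3, leaving out controls 1, 2 and 3 in turn gave log2 fold changes of -2.79, -2.34 and -2.13, and leaving out induced samples 1, 2 and 3 gave -2.54, -2.23 and -2.50. In the 4 dimmer arrays it was -2.88 and in the brighter pair -1.28.

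**Figure D1:**
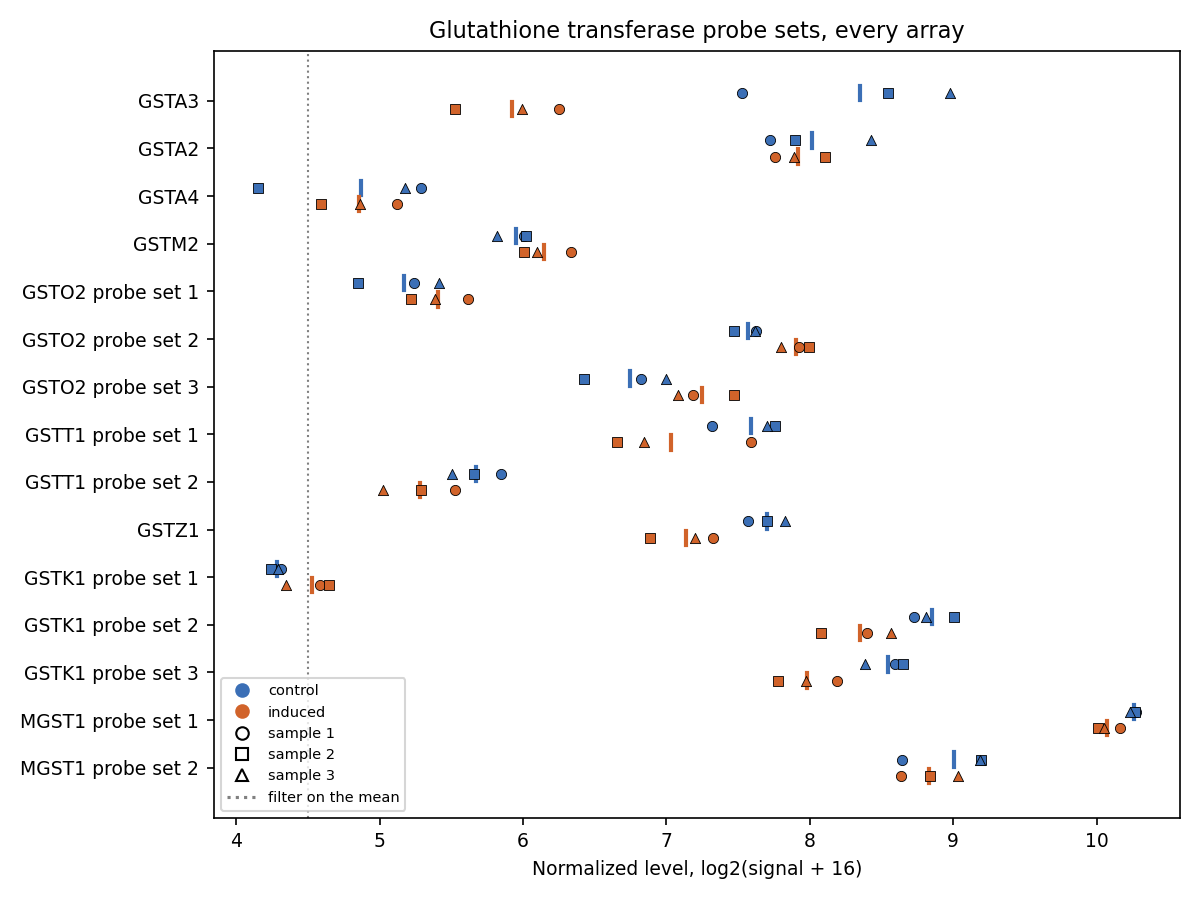
Normalized level (log2(signal + 16), horizontal axis) of each of the 15 probe sets in the 6 arrays, controls in blue above and induced samples in orange below, with a short bar at each group mean and the marker shape giving the sample number. The dotted line is the filter at 4.5 on the mean of the 6 arrays. GSTA3 shows the widest gap, from 8.35 to 5.93, and in 8 rows the groups do not overlap, among them the weak GSTK1 probe set below the filter. Of all probe sets kept, 14.4% had no overlap in either direction, and nothing is read from this share.

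A further probe set is annotated to GSTA3 together with LOC100859645, the gene that follows GSTA3 in the RefSeq assembly GRCg7b, and so lies outside the members. Its deposited signal was 311.7, 139.5 and 139.7 units in controls 1, 2 and 3, and 328.4, 137.4 and 120.8 in induced samples 1 to 3. Normalized, it was 7.62 ± 0.13 in the controls and 7.62 ± 0.13 in the induced samples (SD, n = 3 each), and the log2 fold change was 0.004 (SE 0.175). The 2 probe sets annotated to the gene listed today as GSTA3 thus gave -2.43 and 0.004. GSTA3 is also an older name of the gene listed today as GSTA4. The share of each transcript in either signal cannot be told from these files.

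A ratio within an array removes a scale factor common to that array, though not other effects of brightness. The GSTA3 signal was 0.919, 1.858 and 3.009 times that of the shared probe set in controls 1, 2 and 3, and 0.313, 0.178 and 0.251 times in induced samples 1 to 3. Against GSTA2 the same ratios were 0.854, 1.645 and 1.498 in the controls and 0.293, 0.11 and 0.223 in the induced samples. Both ratios were lower in every induced sample than in every control, a description only, since the fall of GSTA3 chose the set.

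GSTA2, another alpha class gene of the same cluster, had overlapping groups. Its deposited signal was 335.1, 157.6 and 280.5 units in the controls and 350.5, 220.9 and 136 in the induced samples. The mean level was 8.01 ± 0.37 and 7.92 ± 0.18 (SD, n = 3 each), and the log2 fold change was -0.10 (SE 0.213), whose sign turned in 2 of 17 other settings. Some of these settings, such as the filters and the variance trend, cannot change a fold change. GSTA4, an alpha class enzyme that in mammals prefers products of lipid peroxidation such as hydroxynonenal, was weak. Its deposited signal was 37.3, 1 and 17.8 units in the controls and 31.3, 5.9 and 8.7 in the induced samples, under 16 on 3 of the 6 arrays. Its log2 fold change was -0.01 (SE 0.288), with a sign that turned in 5 of 17 other settings, and the control values lay on both sides of all induced ones.

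The alpha genes form a cluster in the RefSeq table, in the order LOC396380 (older name GSTAL3), GSTA4, GSTA3, LOC100859645, LOC395611 and GSTA2. LOC396380 had 114, 42.3 and 60 units in the controls and 150.5, 94.9 and 63.9 in the induced samples. Its normalized levels were 6.36 ± 0.07 and 6.86 ± 0.16 (SD, n = 3 each) with no overlap, and the log2 fold change was 0.50 (SE 0.185) that did not pass over all probe sets (limma adjusted p = 0.405). LOC395611 had a log2 fold change of -0.36 (SE 0.245 in limma, adjusted p = 0.721) with overlapping groups. The 5 probe sets of this cluster other than that of GSTA3 thus had log2 fold changes of -0.36 to 0.50.

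**Figure D2:**
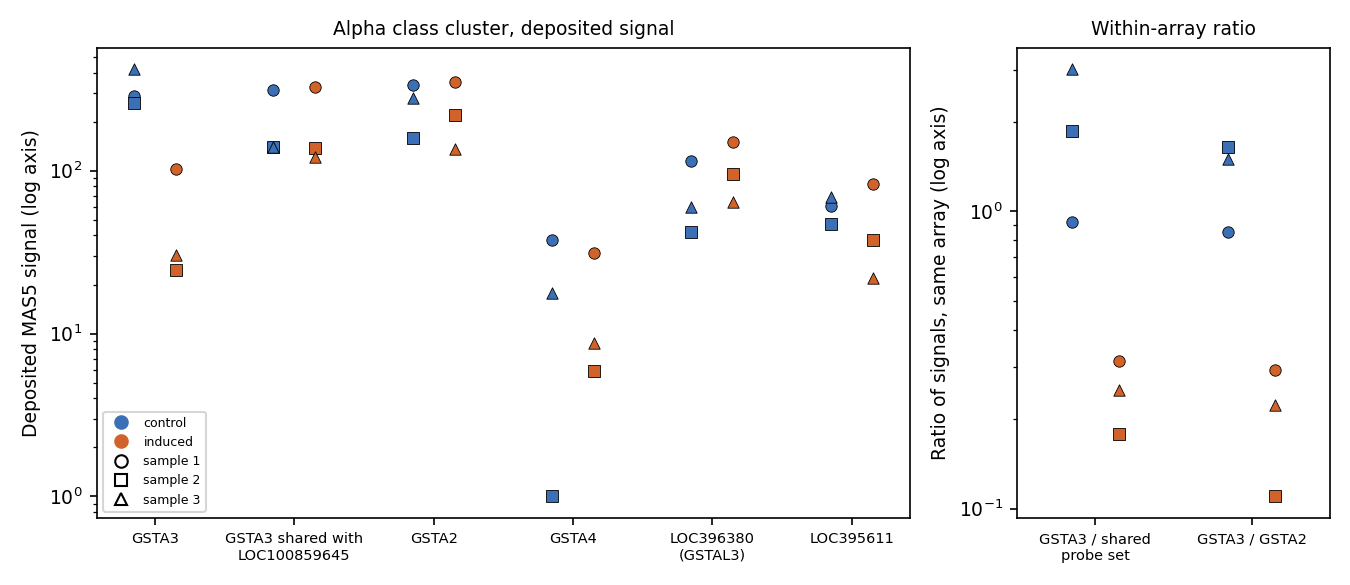
Left, deposited signal (log axis) of 6 probe sets of the alpha class cluster in each array; right, the GSTA3 signal divided by that of the probe set shared with LOC100859645 and by that of GSTA2 in the same array (log axis). Controls are blue, induced samples orange and shapes give the sample number. The ratios run from 0.854 to 3.009 among controls and from 0.11 to 0.313 among induced samples.

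GSTM2, the mu class gene of the set, had levels of 6.01, 6.02 and 5.82 in controls 1, 2 and 3, and 6.34, 6.004 and 6.10 in induced samples 1 to 3. The groups overlapped through induced 2, which lay within the control range. Its log2 fold change was 0.20 (SE 0.187), with the same sign in all 17 other settings, some of which cannot change it.

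GSTO2 is an omega class enzyme, known for thiol transfer and for the reduction of dehydroascorbate, the oxidized form of vitamin C. Its brightest probe set, which can match related transcripts, had levels of 7.62, 7.47 and 7.62 in the controls and 7.92, 7.99 and 7.80 in the induced samples. Its second gave 6.83, 6.43 and 6.998 against 7.19, 7.47 and 7.08. In both the induced samples lay above all controls, by 0.33 (SE 0.166) and 0.50 (SE 0.215) on the log2 scale. The third and weakest gave 5.24, 4.85 and 5.42 in the controls and 5.62, 5.22 and 5.39 in the induced samples, a log2 fold change of 0.24 (SE 0.205) with overlap. The 3 probe sets thus had the same sign, which none of the 17 other settings turned, though some of these cannot change it.

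GSTT1, the theta class enzyme that acts on small halogenated compounds, had a pair of probe sets with lower means in the induced samples. The brighter gave 7.32, 7.76 and 7.70 in controls 1, 2 and 3, and 7.59, 6.66 and 6.85 in induced samples 1 to 3. Induced 1 lay inside the control range and induced 2 and 3 below it. The log2 fold change was -0.56 (SE 0.26), against 0.27 in the brighter pair of arrays and -0.95 in the 4 dimmer arrays. The dimmer probe set gave 5.85, 5.66 and 5.51 in the controls and 5.53, 5.29 and 5.02 in the induced samples, a log2 fold change of -0.39 (SE 0.197). There only induced 1 reached into the control range, just above control 3.

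GSTZ1, or maleylacetoacetate isomerase, works in the breakdown of phenylalanine and tyrosine. It had levels of 7.57, 7.71 and 7.82 in the controls and 7.32, 6.88 and 7.20 in the induced samples, with no overlap. The mean was 7.70 ± 0.13 in the controls and 7.14 ± 0.23 in the induced group (SD, n = 3 each), and the log2 fold change was -0.56 (SE 0.19). Over the 6 arrays its levels had a Pearson correlation of 0.961 with those of GSTA3, the highest of the other members, over points that share the group difference.

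GSTK1, the mitochondrial and peroxisomal kappa enzyme, had 2 strong probe sets and a weak one. The brightest, which can match related transcripts, gave 8.73, 9.01 and 8.81 in the controls and 8.40, 8.08 and 8.57 in the induced samples. The second went from a mean of 8.55 ± 0.14 to 7.98 ± 0.20 (SD, n = 3 each). Neither had any overlap between the groups, and the log2 fold changes were -0.50 (SE 0.172) and -0.56 (SE 0.172). The weak probe set, with at most 13.2 units on any array, fell below the filter and had a log2 fold change of 0.24, the opposite sign to the other 2, which was 0.82 with a pseudocount of 1 and 0.08 with one of 64.

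MGST1, a microsomal enzyme that also has peroxidase activity, was bright in both groups. Its deposited signal was 2017.1, 952.3 and 1034.9 units in the controls and 1850.6, 850.4 and 674 in the induced samples. The normalized mean went from 10.26 ± 0.02 to 10.08 ± 0.08 (SD, n = 3 each) with no overlap, and the log2 fold change was -0.18 (SE 0.0966). It was -0.30 with no normalization between arrays and -0.28 with median centring. The other probe set had a similar difference, -0.17 (SE 0.186), but with a wider spread and overlapping groups, and ran from -0.35 to -0.01 over the other settings.

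**Figure D3:**
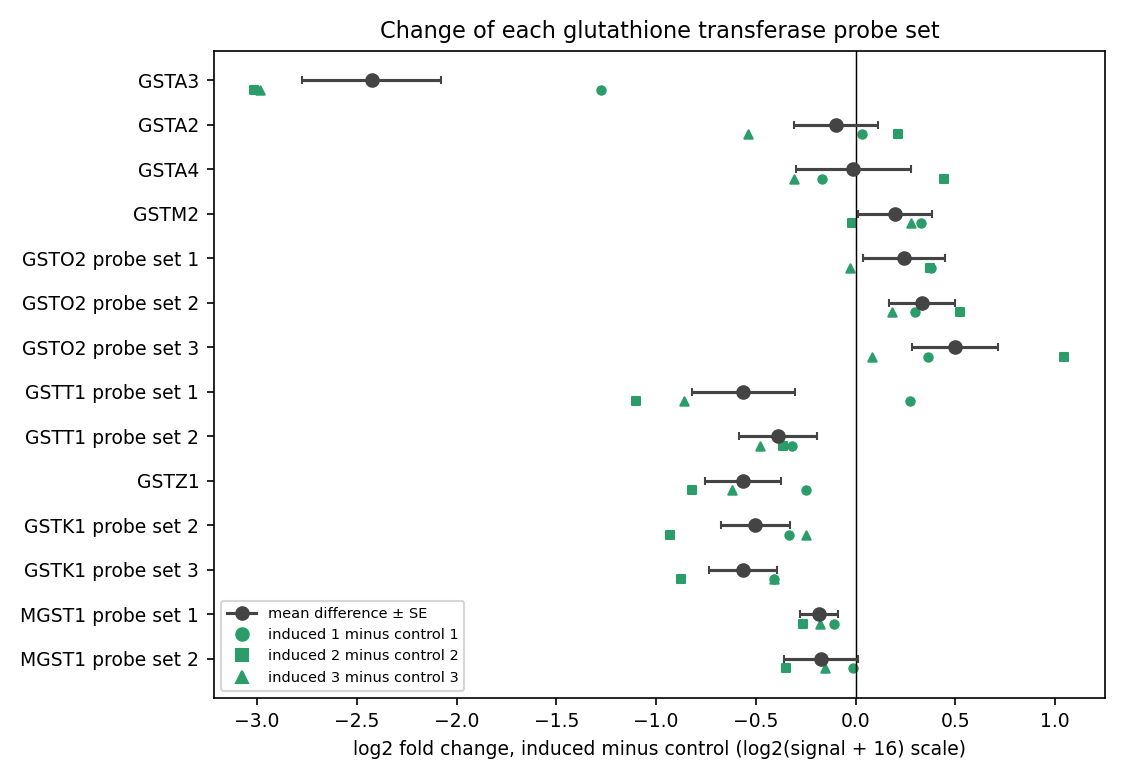
Log2 fold change (induced minus control, horizontal axis) of the 14 probe sets kept, with bars for the SE of the limma fit, and in green the difference between arrays of the same sample number, which are not shown to be pairs. GSTA3 stands at -2.43, the other 13 between -0.56 and 0.50.

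Of the 14 members kept, 10 had a lower mean in the induced samples, against 48.3% of all probe sets kept. Their median log2 fold change was -0.18, and that of all probe sets was 0.009. In 5 the induced samples lay below all controls (GSTA3, GSTZ1, both strong GSTK1 probe sets and 1 of MGST1), which 6.65% of all probe sets kept also did. In 2, both of GSTO2, they lay above them, against 7.74% of all. Nothing is read from these shares, since the set was chosen on this difference. The filter acts on the mean over the 6 arrays, and the member it left out, the weak GSTK1 probe set at 4.41, had no control above 4.32 and no induced value below 4.35. The weakest member kept was GSTA4, at 4.87.

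Genes that make, recycle or use glutathione were read from lists that hold no member. Lists of export and other detoxification genes, and of regulators and targets of the transcription factor NRF2, were read with them. Of 82 listed genes 61 were measured, and 0 rose and 0 fell over all genes by limma, where 0.376% of the 10118 genes tested passed. At an unadjusted p under 0.05 there were 18, or 29.5%, against 11.6% of all genes, and 15 of the 18 had lower means. Of the 18, 8 came from the export and detoxification list and 4 from the NRF2 list. Of the 61, 39 had lower means, against 46.8% of all genes, and 18 had groups with no overlap, against 16.6%. Of the genes named next, GCLC, CNDP2, UGT1A1, CYP1A2, HMOX1 and MAFK had every induced sample below all controls. GPX8, GPX4 and HPGDS had every one above them. The lists were chosen with earlier results of these data known, so nothing is read from these shares. The median log2 fold change of the 61 was -0.10, against 0.016 for all genes.

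Glutathione synthesis had 5 measured genes with a median of 0.02. GCLC, the catalytic subunit of glutamate-cysteine ligase and the rate-limiting enzyme, had a log2 fold change of -0.43 (SE 0.129 in limma, adjusted p = 0.224). GSS, which adds the last residue, had 0.18 (SE 0.191 in limma, adjusted p = 0.807). The redox cycle had 13 genes, 7 with higher and 6 with lower means, and a median of 0.005. GPX8, a peroxidase of the endoplasmic reticulum, had 0.53 (SE 0.132 in limma, adjusted p = 0.144), and GPX4, which reduces lipid hydroperoxides in membranes, 0.31 (SE 0.119 in limma, adjusted p = 0.349). For both, the induced samples lay above all controls.

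Breakdown and recycling had 7 genes with a median of -0.09. CNDP2, a dipeptidase that splits cysteinylglycine, had -0.29 (SE 0.12 in limma, adjusted p = 0.39), and LAP3, an aminopeptidase, 0.35 (SE 0.223 in limma, adjusted p = 0.612). Other enzymes of the transferase families had 5 genes and a median of -0.08, with 0 at an unadjusted p under 0.05. MGST2 had -0.28 (SE 0.192 in limma, adjusted p = 0.649), and HPGDS, the sigma class enzyme that makes prostaglandin D, had 0.15 (SE 0.142 in limma, adjusted p = 0.765) with under 16 units on all 6 arrays. A second HPGDS probe set, also under 16 units on all 6 arrays, fell below the filter and had the opposite sign, -0.28.

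Export pumps and other detoxification enzymes had 16 of 19 genes with lower means and a median of -0.24. UGT1A1, which joins glucuronic acid to bilirubin and other compounds, went from 9.13 to 7.46 with no overlap, a log2 fold change of -1.67 (SE 0.307 in limma, adjusted p = 0.0544). Over 17 other settings its adjusted p ran from 1.02e-06 to 0.813, and it passed in 4, among them those without control 2 and without induced 3. CYP1A2, a cytochrome P450 enzyme, had -0.66 (SE 0.214 in limma, adjusted p = 0.253), with under 16 units on 5 arrays. It passed in 2 of 16 other settings, among them that without induced 3. The mean level of CYP1A2 was 5.01 in the controls and 4.35 in the induced samples, the latter below the filter on low signal. The control values thus kept CYP1A2 among the genes tested. Regulators and targets of NRF2, the transcription factor that drives many glutathione genes under oxidative stress, had 9 of 12 genes with lower means and a median of -0.19. HMOX1, or heme oxygenase, had -0.54 (SE 0.162 in limma, adjusted p = 0.222), with under 16 units on 5 arrays and values of -1.22 to -0.20 over the other settings. MAFK, a small MAF partner of NRF2, had -0.57 (SE 0.177 in limma, adjusted p = 0.229). NFE2L2, which encodes NRF2, had -0.14 (SE 0.164 in limma, adjusted p = 0.839), and was named after its values were seen.

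**Figure D4:**
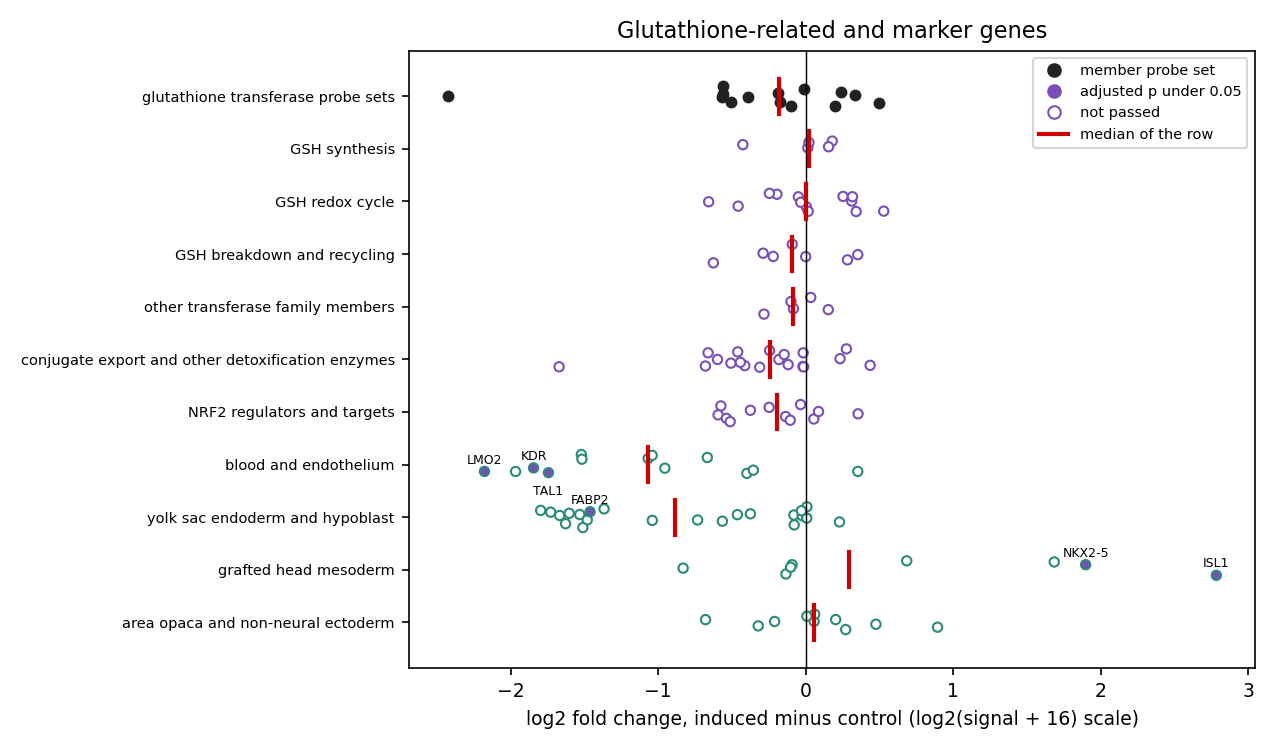
Log2 fold change (induced minus control, horizontal axis), 1 point each with vertical scatter only to separate points. Rows are the 14 members kept, 61 genes in 6 lists of glutathione, detoxification and NRF2 (violet), and marker genes in 4 lists (green). Filled violet points passed over all genes and red bars are medians. No point of those 6 lists passed, while the medians of the blood and yolk sac endoderm rows lie at -1.07 and -0.89.

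Markers of other tissues moved in the same arrays. Of all genes tested, 46.8% had lower means in the induced samples. Of 13 measured genes of blood and endothelium, 12 had lower means there, with a median log2 fold change of -1.07. The summed normalized signal of the 13 ran from 2267 to 3111 units among controls and from 452.2 to 1443 among induced samples. TAL1 and LMO2, transcriptional regulators of blood precursors, and KDR, which encodes a VEGF receptor of endothelium, fell over all genes by limma, with log2 fold changes of -1.74, -2.18 and -1.84. Of the 14 genes with a probe set, HBA1 and SPI1 were under 16 units on all 3 induced arrays and the rest were above it on at least 1. For HBZ, TAL1 and ERG that was only the brighter array of induced 1.

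Of 22 measured genes of yolk sac endoderm and hypoblast, 19 had lower means, with a median of -0.89. The summed signal ran from 3898 to 9424 units among controls and from 2663 to 3280 among induced samples. FABP2, an intestinal fatty acid binding protein, fell over all genes, by 1.46 (SE 0.224 in limma, adjusted p = 0.0277). Its mean level was 5.84 in the controls and 4.38 in the induced samples, the latter below the filter on low signal. Its place among the genes tested thus rested on the control values. TTR, a carrier of thyroid hormone, had -1.53 (SE 0.278 in limma, adjusted p = 0.0526). Of the 25 genes with a probe set, AFP, RBP4 and AHSG were under 16 units on all 6 arrays, and SPIA1, VIL1, FABP1 and FABP2 on all 3 induced arrays.

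Relative to the control mean, GSTA3 stood at -0.82, 0.19 and 0.63 in controls 1, 2 and 3, and at -2.10, -2.82 and -2.35 in induced samples 1 to 3. The yolk sac endoderm list averaged -0.12, -0.43 and 0.55 in the controls and -0.68, -0.99 and -0.91 in the induced samples. That of blood and endothelium had means of -0.06, 0.24 and -0.18 in the controls and -1.11, -1.55 and -0.77 in the induced samples. Induced 2 was the lowest induced sample in all 3. The highest control was control 3 for GSTA3 and the endoderm list and control 2 for the blood list, and the lowest was control 1, 2 and 3 in turn for GSTA3, endoderm and blood. The part of these tissues in the GSTA3 result was not tested.

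Genes of head mesoderm, the grafted tissue, had 4 of 8 higher means and a median of 0.30, with a summed signal of 379.8 to 1766 units among controls and 1668 to 2515 among induced samples. Relative to the control mean the list averaged 0.40, -0.89 and 0.49 in controls 1, 2 and 3, and 0.83, 0.91 and 0.48 in induced samples 1 to 3. Control 2 was thus the lowest, and induced 3 lay within the control range. ISL1 and NKX2-5 rose over all genes, by 2.79 (SE 0.279 in limma, adjusted p = 0.00794) and 1.90 (SE 0.231 in limma, adjusted p = 0.0115). Whether their RNA came from the epiblast or from graft cells was not tested. COL1A2 had the lowest value, -0.83 (SE 0.366 in limma, adjusted p = 0.418). TBX1, MEOX1 and FOXF1 were under 16 units on all 6 arrays. Genes of surface ectoderm had 7 of 10 higher means and a median of 0.06, with a summed signal of 11870 to 13710 units among controls and 11700 to 13200 among induced samples.

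The 5 genes outside the family whose levels were most like those of GSTA3 over the 6 arrays had Pearson correlations of 0.977 to 0.988, over points that share the group difference. They were MAT1A, the liver form of methionine adenosyltransferase, ATP10A, a lipid flippase, GPD1L2, KMO, an enzyme of tryptophan breakdown, and CRIM1, a membrane protein that binds BMP ligands. MAT1A had 80.3, 107.1 and 117.6 units in the controls and 34, 3.4 and 8.3 in the induced samples, and a log2 fold change of -2.09. GPD1L2 had 559.3, 324.3 and 597.4 units in the controls and 199.6, 83.2 and 74.2 in the induced samples, and -1.93. In both, as in GSTA3, every induced sample lay below every control. After normalization induced 1 was the highest of its group for GSTA3 and MAT1A, while for GPD1L2 induced 3 was (7.08 against 7.03). KMO had a log2 fold change of -1.12. The normalized levels of ATP10A and CRIM1 followed the same order of arrays as those of GSTA3, with smaller log2 fold changes of -0.41 and -0.38.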

How the data were processed

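Per the submitters' processing notes, the deposited intensities are MAS5 signals, 1 per probe set on each array, in linear units. No version or scaling is named for them. Here 16 was added to each signal, log2 taken and the 6 arrays quantile normalized with limma 3.58.1 (R 4.3.3). A filter at the 40th percentile of the mean over arrays (4.5 on the log2 scale) kept 22614 of 37690 probe sets. The added 16 understates folds of weak genes. Induced and control arrays were then fitted with lmFit and eBayes (variance trend, no term other than group), with Benjamini-Hochberg adjustment over every probe set kept and a threshold of 0.05. The fitting script was first tested on simulated data. With 3 arrays against 3, the number of arrays limits the precision. Genes of the lists were represented by their strongest probe set, and p adjusted over 10118 genes.

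Names came from GEO's platform annotation (27166 probe sets with 1 symbol, 177 with several, 10347 with none), of which 26851 were updated by Entrez number through RefSeq genes of GRCg7b, used for names and gene order only. A few listed genes matched under an older symbol. The lists were GSH (glutathione) synthesis, the redox cycle, breakdown, other transferase enzymes, export and detoxification, NRF2, and markers of blood, yolk sac endoderm, head mesoderm and surface ectoderm. Members and lists were chosen with earlier results of these data known. The text names every member, every list gene that passed and up to 2 per glutathione list and 4 per marker list with the lowest p, and the 5 most similar genes. Other genes, among them EPCAM, CDH1 and NFE2L2, were named outside this rule. No sequences of these genes were used here.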

Additional observations from a re-analysis of the deposited data

How the results depend on the processing

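The filters, the replicate block alone and the variance trend cannot change a fold change, so counts of settings with the same sign include them. GSTA3 kept its sign in all 17 other settings. Since every induced sample lay below every control, leaving out 1 array could not turn the sign of GSTA3 either. Its log2 fold change was -1.79 with a pseudocount of 64, -1.28 in the brighter pair of arrays and -2.79 to -2.13 with 1 array left out. Of the 14 other member probe sets, 11 kept their sign throughout, while GSTA2, GSTA4 and the brighter GSTT1 probe set turned in 2, 5 and 1 settings. The count of members past the threshold, a description since GSTA3 was chosen on this difference, was 1, against 0 with a pseudocount of 1 or 64, no filter, a filter at the 60th percentile, no normalization, the replicate block or no variance trend, and 0 to 1 with 1 array left out. All probe sets past the threshold numbered 22, against 12 with no normalization, 5 in the 4 dimmer arrays and 2 to 110 with 1 array left out. Genes of the glutathione, detoxification and NRF2 lists past it numbered 0, against 0 to 2 with 1 array left out. These were UGT1A1 without control 2, and UGT1A1 and CYP1A2 without induced 3. With the repeat number as a replicate block 26 probe sets, 0 members and 1 gene of those lists (UGT1A1) passed. With that block and no normalization it was 587, 1 and 4 (ABCC2, CYP1A2, CYP2C18 and UGT1A1). Deviations of arrays with the same number correlated at 0.553, -0.146 and 0.069, and at 0.69, -0.031 and 0.233 with no normalization. With an induced array of another number, controls 1, 2 and 3 reached at most -0.04, 0.402 and 0.227 after normalization. After normalization only number 1, that of the brighter arrays, was higher with itself. The labels do not say whether equal numbers share hosts, and 3 arrays per group cannot settle it. The main fit therefore held no pairing, and the block is given as another setting. The causes were not tested. Signals under 16 units limit GSTA4 and the weak GSTK1 probe set.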

Other observations

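GSTT1L, a gene named for its likeness to GSTT1 and not a member, had 4 probe sets, of which 1 passed the filter on low signal. That probe set had 32, 23.7 and 47.8 units in controls 1, 2 and 3, and 42.1, 9.5 and 10 in induced samples 1 to 3, with a log2 fold change of -0.59 (SE 0.259 in limma, adjusted p = 0.499). As in the brighter GSTT1 probe set, induced sample 1 lay inside the control range and induced 2 and 3 below it. The adjusted p of GSTT1L is over all probe sets kept. MGST3, a microsomal enzyme of the other transferase list, had a log2 fold change of -0.08 with overlapping groups (SE 0.183 in limma, adjusted p = 0.924 over all genes).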
